A study of Mus musculus with 2 samples.

Results

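The 8 troponin genes Tnni1, Tnni2, Tnni3, Tnnt1, Tnnt2, Tnnt3, Tnnc1 and Tnnc2 and the 2 sarcomeric actin genes Acta1 and Actc1 were followed in cultured mouse myoblasts after deletion of Mll1. Their probe sets were those that the array annotation assigns to exactly 1 of these symbols. Each of the 10 genes had 1 such probe set, out of 21789 probe sets with 1 gene symbol, which stand for 19938 genes. Gene expression had been measured with 1 Affymetrix MoGene 1.0 ST array per condition, and every value below is a log2 RMA signal or a difference of 2 such signals. MLL1 is a histone H3K4 methyltransferase, and the arrays were made to survey expression broadly after its loss.

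The Mll1 cKO array held RNA of Rosa-CreER / MLL1 fl/fl myoblasts grown with 500 nM 4-OHT in 0.01% ethanol for 7 days and then without both for 3 days. The Control array held RNA of the same line, with the same floxed alleles and the same CreER, grown with 0.01% ethanol for 7 days and then without it for 3 days. Only the Mll1 cKO culture received 4-OHT, so an effect of the drug and an effect of the deletion cannot be told apart. CreER is expressed from the Rosa26 locus, which is active in nearly all cell types. Both cultures came from 1 myoblast line that was derived from hind limb muscle of mice aged 5 to 6 weeks, and both were kept in a growth medium, Ham's F10 with FBS at 20% and FGF at 5 ng/ml. With 1 array per condition there was no spread between replicates, no standard error and no test, and the differences have no replicate check. Kmt2a, the gene of MLL1, had a signal of 9.66 in the Mll1 cKO array and 9.44 in the Control array, and the array summarises probes along the transcript, so this value does not measure the excised exons.

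Troponin is the calcium switch of striated muscle. On the thin filament, troponin C binds calcium, troponin I inhibits the interaction of actin with myosin, and troponin T anchors the complex to tropomyosin. Slow skeletal, fast skeletal and cardiac muscle use different genes for these subunits, except that Tnnc1 serves both slow skeletal and cardiac muscle, and the thin filament itself is built from the skeletal actin ACTA1 and the cardiac actin ACTC1. Myoblasts switch on many of these genes as they leave the cell cycle and fuse, and cardiac isoforms such as Tnnt2 and Actc1 are also expressed in embryonic and regenerating skeletal muscle.

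Of the 10 genes, 9 had a higher signal in the Mll1 cKO array and 1, Tnni2, had a lower one, while 41.2% of all probe sets with 1 gene symbol were higher. The difference exceeded 2-fold for 1 gene, Tnni1, which was higher, against a background of 1.18% of probe sets over 2-fold higher. None was over 2-fold lower, against 0.101% of probe sets. At 1.5-fold, Tnni1, Acta1 and Tnnc1 were higher, against 4.85% of probe sets, and none was lower, against 2.03%. The median of the 10 log2 differences was 0.42, and that of all probe sets with 1 gene symbol was -0.05, with a central 95% range from -0.56 to 0.77. Tnni1, Acta1 and Tnnc1 lay above the upper end of that range, and the other 7 lay within it. Probe sets of similar signal had a higher median than -0.05 for all of these genes but Tnni3. Among the 1000 probe sets nearest in mean signal, it ran from 0.013 for Acta1 and Actc1 to 0.125 for Tnni2. For Tnni3 it was -0.138. Except for Tnni2 and Tnni3, the contrast with all probe sets is thus larger than that with probe sets of similar signal. For Tnni2, which was lower, and for Tnni3 it is smaller. In bulk RNA, a change in the share of cells that express a gene and a change in its RNA per cell cannot be told apart. Probes differ in their response, so the signals of different probe sets give no order of RNA levels between genes.

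**Figure D1:**
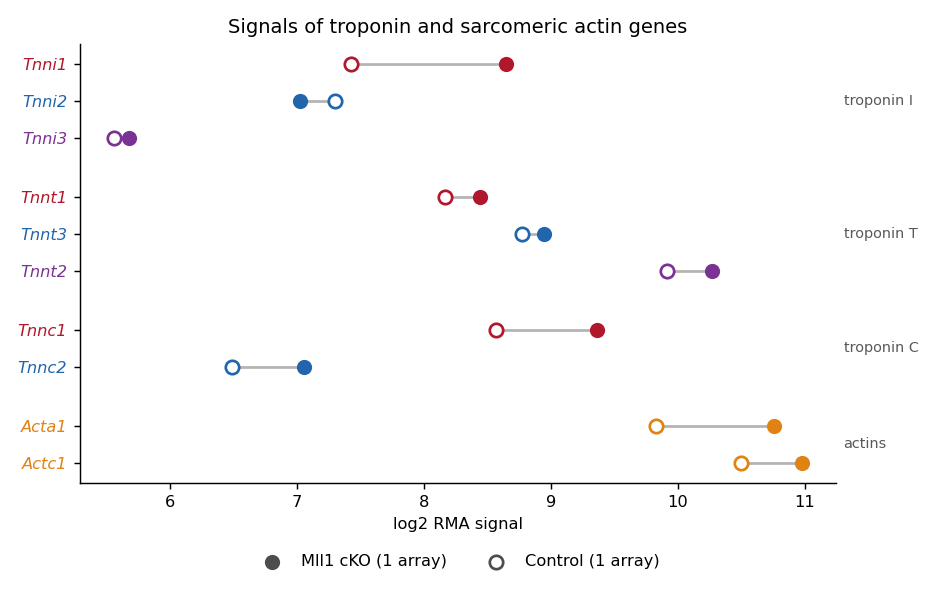
Log2 RMA signal (x axis) of each gene (rows, grouped by protein family) in the Mll1 cKO array (filled circles) and the Control array (open circles), 1 array each, coloured red for slow troponins, blue for fast troponins, purple for cardiac troponins and orange for actins. The filled circle lies to the right of the open one for 9 genes, with the widest gap for Tnni1 (8.65 against 7.43), and to the left for Tnni2 (7.02 against 7.30).

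Of the troponin I genes, slow Tnni1 was higher in the Mll1 cKO array, fast Tnni2 was lower and cardiac Tnni3 differed little. Tnni1 had a signal of 8.65 in the Mll1 cKO array and 7.43 in the Control array, a log2 difference of 1.22 or 2.33-fold. It ranked at position 131 from the top of the 21789 probe sets. Of the 1000 probe sets nearest to it in mean signal, 0.9% had a difference as high or higher. The promoter of Tnni1 at the first of its 2 start sites in RefSeq is printed here because the gene had the largest difference of the set. It runs from 250 bases before the start to 50 bases from it, and its sequence is that of GRCm38.p6, read 5′ to 3′ along the gene. The capitals mark matches to the E-box CANNTG, the letters bound by myogenic basic helix-loop-helix factors such as MYOD and myogenin.
Tnni1 promoter, chr1:135799171-135799470, plus strand: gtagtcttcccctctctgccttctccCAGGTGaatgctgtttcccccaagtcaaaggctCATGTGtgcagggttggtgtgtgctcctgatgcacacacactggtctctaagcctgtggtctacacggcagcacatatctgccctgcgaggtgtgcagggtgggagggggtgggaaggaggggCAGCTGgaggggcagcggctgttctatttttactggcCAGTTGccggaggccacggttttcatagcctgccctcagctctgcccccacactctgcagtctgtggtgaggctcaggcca

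Its 4 E-box matches begin 224, 191, 68 and 31 bases before the start. The second start lies downstream, and its window overlaps the first and holds 2 of the same matches.

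Fast Tnni2 had a signal of 7.02 in the Mll1 cKO array and 7.30 in the Control array, a log2 difference of -0.28, or 1.21-fold lower. Of the 1000 probe sets nearest in mean signal, 90.4% had a difference as high or higher. It was the only gene of the set with a lower signal in the Mll1 cKO array. The difference of Tnni1 exceeded that of Tnni2 by 1.501 on the log2 scale, the widest separation of a slow and a fast gene within a subunit family here, and the value was 1.501 to 1.531 under the other scalings tried.

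Cardiac Tnni3 had a signal of 5.67 in the Mll1 cKO array and 5.56 in the Control array, a log2 difference of 0.11. Both signals were low. The median over all probe sets with 1 gene symbol was 6.28 in the Mll1 cKO array and 6.21 in the Control array. The central 95% of the 1000 probe sets nearest in mean signal ran from -0.59 to 0.93. Its promoter is printed as that of a troponin I gene with a small difference. Capitals mark the only match, an E-box that begins 19 bases before the start.
Tnni3 promoter, chr7:4522479-4522778, minus strand: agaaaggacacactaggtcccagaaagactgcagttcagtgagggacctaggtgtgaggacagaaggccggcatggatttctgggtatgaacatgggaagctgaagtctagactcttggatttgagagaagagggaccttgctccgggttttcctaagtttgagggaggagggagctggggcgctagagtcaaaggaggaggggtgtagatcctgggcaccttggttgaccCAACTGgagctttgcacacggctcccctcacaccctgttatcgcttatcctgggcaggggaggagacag

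The troponin T genes were all slightly higher in the Mll1 cKO array, within 1.3-fold. Slow Tnnt1 had a signal of 8.44 in the Mll1 cKO array and 8.17 in the Control array, a log2 difference of 0.28. Fast Tnnt3 had 8.94 in the Mll1 cKO array and 8.77 in the Control array, a log2 difference of 0.18. Cardiac Tnnt2 had 10.27 in the Mll1 cKO array and 9.92 in the Control array, a log2 difference of 0.36. The slow and fast members, which were 1.501 apart in the troponin I family, were 0.10 apart on the log2 scale in this one. Of the 1000 probe sets nearest in mean signal, 26.4% had a difference as high as that of Tnnt1, 31.4% as high as that of Tnnt3 and 10.3% as high as that of Tnnt2. All 3 lay within the central 95% of those probe sets.

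Both troponin C genes were higher in the Mll1 cKO array. Tnnc1, the slow and cardiac gene, had a signal of 9.37 in the Mll1 cKO array and 8.57 in the Control array, a log2 difference of 0.80 or 1.74-fold. Fast Tnnc2 had 7.06 in the Mll1 cKO array and 6.49 in the Control array, a log2 difference of 0.57 or 1.48-fold. Of the 1000 probe sets nearest in mean signal, 1.3% had a difference as high as that of Tnnc1 and 10.9% one as high as that of Tnnc2. Tnnc1 exceeded Tnnc2 by 0.23 on the log2 scale. The promoter of Tnnc1 is shown since the gene had the second largest difference among the troponins. Its capitals mark 2 E-boxes, which begin 197 and 145 bases before the start, and 1 match to the core CATTCC of the MCAT element, the letters bound by TEAD factors, which lies on the opposite strand and begins 58 bases before the start.
Tnnc1 promoter, chr14:31208062-31208361, plus strand: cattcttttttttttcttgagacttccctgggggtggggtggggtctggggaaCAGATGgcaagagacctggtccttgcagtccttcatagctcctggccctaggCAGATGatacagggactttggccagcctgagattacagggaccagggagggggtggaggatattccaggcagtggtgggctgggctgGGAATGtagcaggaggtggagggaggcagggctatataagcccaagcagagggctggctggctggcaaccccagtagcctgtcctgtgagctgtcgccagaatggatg

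Both sarcomeric actin genes were higher in the Mll1 cKO array. Acta1, the actin of adult skeletal muscle, had a signal of 10.76 in the Mll1 cKO array and 9.83 in the Control array, a log2 difference of 0.94 or 1.91-fold. Actc1, the cardiac actin, which also predominates in early skeletal muscle, had 10.98 in the Mll1 cKO array and 10.50 in the Control array, a log2 difference of 0.48 or 1.39-fold. Of the 1000 probe sets nearest in mean signal, 0.7% had a difference as high as that of Acta1, the smallest such share of the set, and 5.2% one as high as that of Actc1. Acta1 exceeded Actc1 by 0.46 on the log2 scale. The 2 genes encode closely similar proteins, and whether some probes of one gene also capture RNA of the other was not tested.

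Both actin promoters are printed because they hold the CArG box, the element bound by serum response factor, and no other window of the set does. Its letters are named here by that name alone. The match begins 73 bases before the start of Acta1 and 47 bases before that of Actc1. The capitals also mark 2 E-boxes and 1 MCAT core in the window of Acta1 and 1 E-box just after the start of Actc1.
Acta1 promoter, chr8:123894726-123895025, minus strand: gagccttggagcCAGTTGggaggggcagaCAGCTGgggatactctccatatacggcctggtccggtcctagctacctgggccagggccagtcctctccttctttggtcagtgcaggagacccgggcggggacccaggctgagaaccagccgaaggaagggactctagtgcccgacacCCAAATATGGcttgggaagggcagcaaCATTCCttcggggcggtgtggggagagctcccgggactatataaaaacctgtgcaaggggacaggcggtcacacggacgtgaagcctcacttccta
Actc1 promoter, chr2:114052826-114053125, minus strand: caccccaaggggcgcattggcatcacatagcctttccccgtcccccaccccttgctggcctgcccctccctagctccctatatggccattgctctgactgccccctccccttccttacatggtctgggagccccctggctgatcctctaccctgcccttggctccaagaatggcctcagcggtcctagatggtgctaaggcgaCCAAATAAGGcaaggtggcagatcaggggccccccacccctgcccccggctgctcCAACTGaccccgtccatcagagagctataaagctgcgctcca

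**Figure D2:**
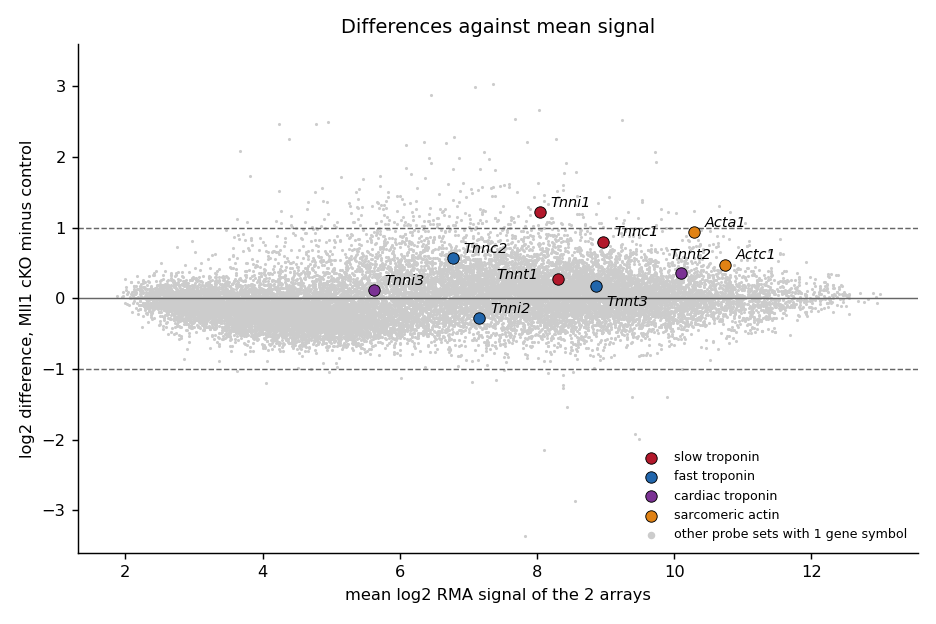
Log2 difference, Mll1 cKO minus control (y axis), against the mean log2 RMA signal of both arrays (x axis) for the 21789 probe sets with 1 gene symbol (grey), with the 10 genes coloured by class and dashed lines at 2-fold. Tnni1 lies above the upper line at 1.22, Acta1 lies just under it at 0.94, and Tnni2 is the only one under 0.

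Taken by muscle type, the slow troponins had the highest median. Their log2 differences had a median of 0.80 over 3 genes, from 0.28 for Tnnt1 to 1.22 for Tnni1. The median is the value of Tnnc1, which also serves cardiac muscle and was counted with the slow genes only. The median was 0.18 for the 3 fast genes, from -0.28 for Tnni2 to 0.57 for Tnnc2, so the slow and fast ranges overlapped. The 2 cardiac troponins had 0.11 and 0.36, and the 2 actins 0.48 and 0.94. In each of the 3 subunit families the slow gene had a higher difference than the fast gene, by 1.501 for troponin I, 0.10 for troponin T and 0.23 for troponin C. Sorted by subunit in place of muscle type, the median was 0.11 for troponin I, 0.28 for troponin T, 0.68 for troponin C and 0.71 for the actins. The troponin I median is the value of Tnni3, a gene of low signal, and that family had the widest range, from -0.28 to 1.22. These are descriptions of 2 arrays.

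**Figure D3:**
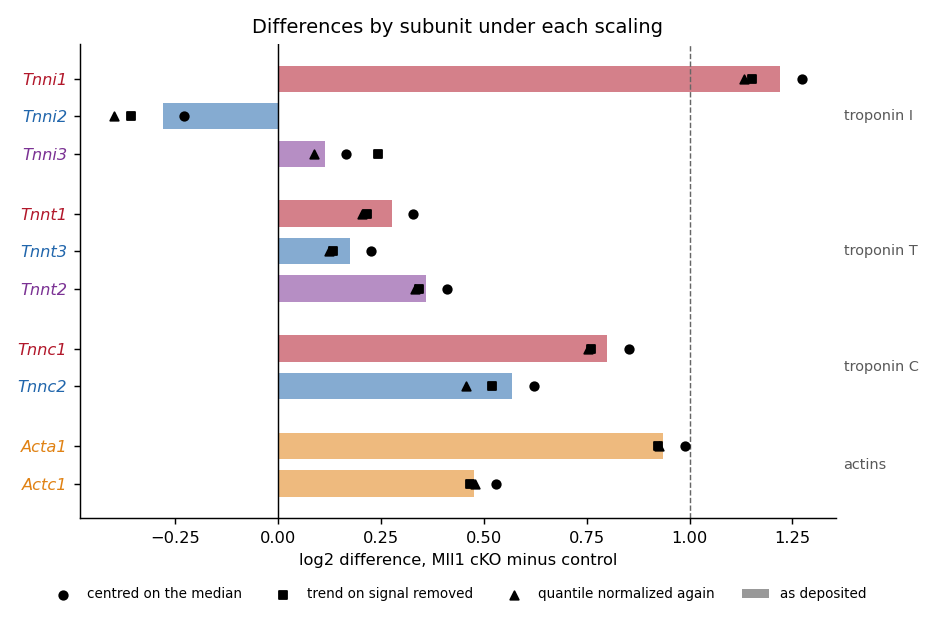
Log2 difference, Mll1 cKO minus control (x axis), for each gene (rows, red for slow, blue for fast and purple for cardiac troponins and orange for actins), with bars for the deposited values and symbols for 3 other scalings of the same arrays, and a dashed line at 2-fold. Every gene kept its sign under the scalings shown, Tnni1 stayed between 1.13 and 1.27, and Tnni2 stayed between -0.40 and -0.23.

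Some of the troponin genes lie in pairs in RefSeq (GRCm38.p6), either adjacent or with 1 protein-coding gene between them. The genes around these pairs are named by position, a choice made after their values were seen. Tnni1 and Tnnt2 on chromosome 1 are separated by 1 protein-coding gene, Lad1, which encodes the basement membrane protein ladinin and had signals of 5.54 in the Mll1 cKO array and 5.39 in the Control array. Phlda3, the protein-coding gene on the other side of Tnni1, had 11.17 in the Mll1 cKO array and 11.05 in the Control array, and Pkp1, beyond Tnnt2, had 5.58 in the Mll1 cKO array and 5.84 in the Control array. The largest difference of the set thus stood beside neighbours with log2 differences of 0.14 and 0.13.

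On chromosome 7, Tnnt1 and Tnni3 are adjacent, with log2 differences of 0.28 and 0.11. The flanking genes Ppp1r12c and Dnaaf3 had log2 differences of -0.06 and 0.26. Further along chromosome 7, Tnni2 and Tnnt3 flank Lsp1, a leukocyte actin-binding protein gene, which had a log2 difference of 0.40 between the -0.28 of Tnni2 and the 0.18 of Tnnt3. Outside this pair lie Syt8, with a log2 difference of -0.37, and Mrpl23, with -0.06. Around all of the pairs, the next protein-coding genes outward ran from -0.58, for Igfn1 beyond Pkp1, to 0.63, for Ctsd beyond Syt8. Tnnc1, Tnnc2, Acta1 and Actc1 lie elsewhere, on chromosomes 14, 2, 8 and 2.

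The table of RefSeq promoter windows used here covered 8 of the 10 genes, with 10 start sites between them, and the promoters of Tnni2 and Tnnt3 were not analysed here. An E-box was present in all 10 windows, but 72.3% of the 32851 promoter windows of that length in RefSeq have one. Their number ran from 1, in the windows of Tnni3 and Actc1, to 5, in the first window of Tnnt2. The log2 differences of these genes were 0.11, 0.48 and 0.36. The CArG box was present in 2 of the 10 windows, those of Acta1 and Actc1, and in 1.63% of all windows. The MCAT core, counted on both strands, was present in 3 of the 10 windows and in 14.7% of all windows. Those 3 were the first window of Tnnt2 and the windows of Tnnc1 and Acta1. The MEF2 site, searched by its consensus, was in none of the 10 windows and in 3.19% of all windows. No match overlapped another. A match describes these letters and does not show that a factor binds there.

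**Figure D4:**
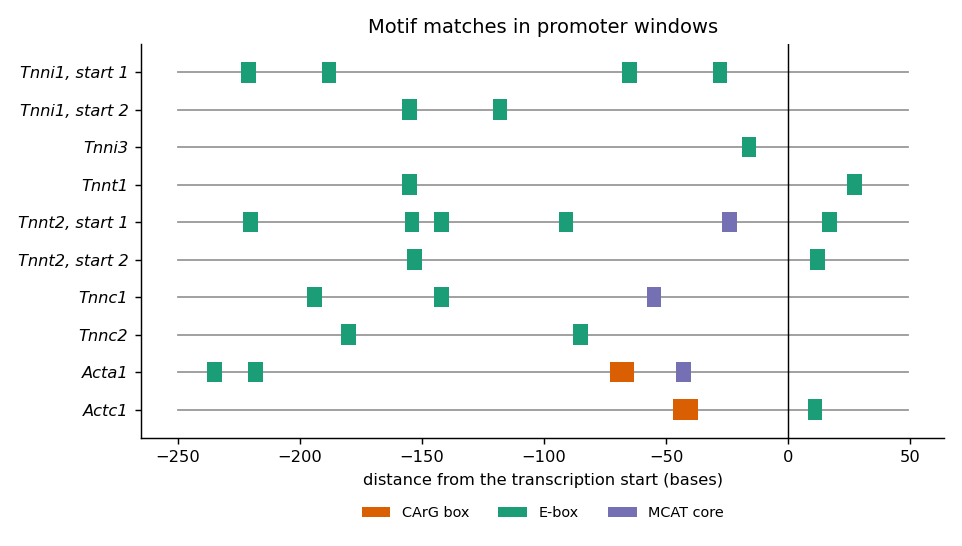
Matches to the CArG box, the E-box and the MCAT core along the 10 promoter windows (rows) of 8 genes, with the distance from the transcription start in bases (x axis) and the start as a vertical line. The CArG box appears only in the rows of Acta1 and Actc1, 73 and 47 bases before the start, and each row has at least 1 E-box.

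Other thin filament genes had a lower median difference than the troponins and sarcomeric actins, in a list not limited to genes of striated muscle. Lmod1, for example, also stands among the smooth muscle markers, and signals in the list began at 4.46 in the Mll1 cKO array. Of 17 genes of tropomyosins, tropomodulins, leiomodins, nebulins and their partners, the Mll1 cKO array was higher for 11 and lower for 6, and the median of their log2 differences was 0.09. Klhl41, which encodes a kelch protein of skeletal muscle that interacts with nebulin, was the only one over 2-fold, at 2.25-fold higher with signals of 8.31 in the Mll1 cKO array and 7.14 in the Control array. The genes of tropomyosin, to which troponin T binds, are named after their values were seen. Tpm1, Tpm2, Tpm3 and Tpm4 had log2 differences of 0.12, -0.24, 0.01 and -0.26. The striated muscle leiomodins, which nucleate thin filaments, were chosen likewise, and Lmod2 and Lmod3 had log2 differences of 0.79 and 0.86. Actins outside the sarcomere differed by less than 1.1-fold. The cytoplasmic Actb had a signal of 12.83 in both arrays, and smooth muscle Acta2 had 11.23 in the Mll1 cKO array and 11.22 in the Control array. Of the 4 listed genes of this kind, 3 were measured and the largest difference was 0.07, for Actg2.

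Other fibre type genes were compared with the troponins of the same type. Of 9 other slow-fibre genes, the Mll1 cKO array was higher for 5 and lower for 4, and 2 of them passed 2-fold upwards. The median of their log2 differences was 0.01. Those 2 were Myl6b, a myosin light chain gene, at 2.34-fold, and Casq2, a calsequestrin gene, at 2.28-fold. Myh7, the slow myosin heavy chain gene, had signals of 6.26 in the Mll1 cKO array and 6.01 in the Control array. Of 12 other fast-fibre genes, 9 were higher in the Mll1 cKO array, 2 were lower and 1, Myh2, had the same signal of 4.89 in both arrays. The median of their log2 differences was 0.46, and Myh1, Myl1 and Casq1 passed 2-fold upwards. The order of the slow and fast medians in these lists was thus the opposite of that among the troponins. The lists overlapped widely, from -0.30 to 1.22 for the slow and from -0.37 to 1.24 for the fast genes. Both medians also rest in part on genes of low signal. In the Mll1 cKO array, signals began at 4.16 in the slow list and at 3.94 in the fast list. The 3 developmental myosins Myh3, Myh8 and Myl4 had log2 differences of 0.57, 0.79 and 0.84.

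Markers of differentiating muscle had a median difference close to that of the troponins and actins, and S-phase genes had a median below 0. Some genes stand in more than 1 list, such as Tpm1, Myl1, Myl4 and Mef2c. Of 9 listed genes 8 were measured, and the Mll1 cKO array was higher for 5, of which 3 passed 2-fold, and lower for 3. The median of their log2 differences was 0.47. Those over 2-fold were Mef2c, Myl1 and Mymk, whereas Ckm, the muscle creatine kinase gene, had 5.76 in the Mll1 cKO array and 5.87 in the Control array. Of 12 S-phase genes, 11 were lower in the Mll1 cKO array, none of them by over 2-fold. The median of their log2 differences was -0.47, and Cdc6 had the largest at -0.72. Among 18 measured regulators of muscle promoters, Mef2c was the only one over 2-fold, at 2.71-fold higher. Srf, the factor of the CArG box, had 8.87 in the Mll1 cKO array and 9.05 in the Control array. The part of these genes in the troponin and actin differences was not tested.

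**Figure D5:**
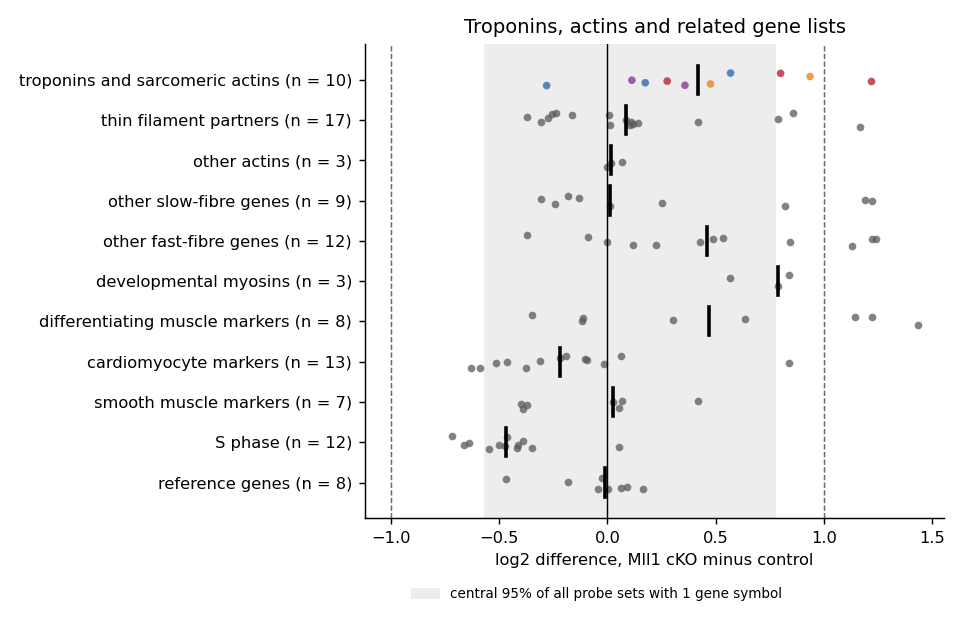
Log2 difference, Mll1 cKO minus control (x axis), of each gene (points) in the set of 10 (coloured by class) and in 10 related lists (grey), with the median of each list as a black bar, 2-fold as dashed lines and the central 95% of all probe sets with 1 gene symbol shaded. The set of 10 has a median of 0.42, near those of the fast-fibre genes (0.46) and the differentiating muscle markers (0.47), and the S-phase genes lie at -0.47.

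Markers of myoblasts and of other cell types were read in both arrays. Of 8 myoblast markers, only Myf5 was over 2-fold lower and none was over 2-fold higher, with signals from 6.14 to 12.27 in the Mll1 cKO array and from 9.43 to 12.15 in the Control array. Of 13 cardiomyocyte markers, the Mll1 cKO array was higher for 2 and lower for 11, and the median of their log2 differences was -0.22. Lower signals also prevailed over all probe sets with 1 gene symbol, of which 12200 of 21789 were lower in the Mll1 cKO array. Among other cell types, 8 of 10 fibroblast, 5 of 6 endothelial, 5 of 6 immune and 4 of 5 adipocyte markers were lower. The smooth muscle list differed, with 3 of 7 markers lower and 4 higher. Signals of the cardiomyocyte list ran from 3.41 to 11.21 in the Mll1 cKO array and from 3.87 to 10.37 in the Control array. Myl4, 1 of the 2 higher markers, is also the embryonic light chain of skeletal muscle and had 11.21 in the Mll1 cKO array and 10.37 in the Control array. The defining genes Myh6, Nppa and Myl7 had 5.04, 4.87 and 4.68 in the Mll1 cKO array and 4.98, 4.89 and 4.78 in the Control array. Of 7 smooth muscle markers, none was over 2-fold and Tagln differed most, at 0.42. None of the 10 fibroblast, 6 endothelial or 5 adipocyte markers was over 2-fold. The largest log2 differences in these lists were -0.45 for Col3a1, -0.39 for Tie1 and -0.64 for Cidec. Of 6 immune markers 1, Cd68, a lysosomal gene that other cells also express, was over 2-fold higher. The 8 measured reference genes had a median log2 difference of -0.01, with the largest for Pgk1 at -0.47.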

How the data were processed

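Signals of 1 Mll1 cKO and 1 Control array were analysed. Per the labels, raw data of Affymetrix MoGene 1.0 ST arrays were RMA normalized, and the authors deposited 1 table of log2 signals, with 35557 probe sets. RMA subtracts background, brings the arrays to 1 distribution and gives 1 value for all probes of a set. No source used here gives its version. The labels give 3 days without 4-OHT and the methods 2. The series description names exon 2 as excised and the supplement exons 3 and 4.

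Probe sets were named from the platform annotation where it gives 1 symbol, which held for 21789. The 1621 with several symbols and the 12147 with none there stayed out of names and counts. No source used here names the genome build of the array, so RefSeq (GRCm38.p6) served for gene order and promoter sequence only. Each difference is the Mll1 cKO minus the Control log2 signal. The 2-fold cut-off is that of the study's methods. Genes with several probe sets entered lists as their mean. Named genes were all 10 members and, of each list, those over 2-fold or, with none, the one with the largest difference. Other genes given by name (Myh7, Myh2, Myh3, Myh8, Myl4, Myh6, Nppa, Myl7, Ckm, Srf, Actb, Acta2, the tropomyosins, the leiomodins and chromosomal neighbours) were chosen after their values were seen. Members and lists were chosen with earlier results of these data known. Alternatives were other cut-offs, a signal filter, centring, removal of a lowess trend with a span of 0.3 and renewed quantile normalization. The computations were tested on simulated data. Python 3.11.15 was used with numpy 2.4.6, pandas 2.3.3, statsmodels 0.14.6 and matplotlib 3.10.9. The number of arrays limits the precision.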

Additional observations from a re-analysis of the deposited data

How the results depend on the processing

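The log2 difference of each of the 10 genes kept its sign and its side of the 2-fold cut-off under centring of all differences, removal of a lowess trend on signal, renewed quantile normalization and both ways of choosing probe sets, the last of which change nothing since each gene has 1 probe set. The closest to the cut-off was Acta1, between 0.92 and 0.99. With a cut-off of 1.5-fold, 3 genes were higher, and with 3-fold, 0 were. With all 35557 probe sets as background, the share over 2-fold higher was 2.62% and that over 2-fold lower 0.219%. Restricted to a mean signal over 6, the cardiac troponins were Tnnt2 alone, with a log2 difference of 0.36. Medians of lists near 0 turned: the other slow-fibre genes had -0.053 after quantile normalization, the reference genes 0.0405 after centring, and the smooth muscle markers -0.00276 after removal of the trend and -0.0750 after quantile normalization. With the trend removed, the medians of the endothelial, immune, adipocyte and cardiomyocyte markers were -0.024, -0.0109, -0.114 and -0.12.

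No paired analysis was possible because each condition has 1 array. No replicate was left out either, and the variation between cultures is not measured.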
